A study of Sus scrofa with 4 samples.

Results

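The MYC family and its partners were followed as 10 genes, MYC, MYCN, MYCL, MAX, MXD1, MXD3, MXD4, MXI1, MNT and MLX, among 29837 named genes counted by RNA sequencing. They were found by gene symbol, and the set was chosen from measured values, because the difference between the sorted populations was known when it was drawn up. That difference is therefore a description for the members. Their fold changes, standard errors, intervals and calls are read from a fit across all genes, their p-values are not printed, and nothing is supported with them. The cells came from the dissociated epidermis of 2 juvenile pigs, 88R and 95R, and each pig gave 1 LGR5-high and 1 LGR5-negative library. Both populations carried the same knock-in allele, in which the coding sequence of a histone H2B-GFP fusion was placed in exon 1 of the stem cell receptor gene LGR5. LGR5-high cells were sorted for bright GFP and LGR5-negative cells for its absence, and cells of low GFP were not sequenced. The pigs of the study were made from edited fetal fibroblast colonies by nuclear transfer, or were offspring of such pigs. The study reported that GFP followed LGR5 RNA. GFP bound to histones is diluted when a cell divides, so the gate can reflect present and past LGR5 expression and divisions since.

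The MYC proteins are basic helix-loop-helix leucine zipper transcription factors that bind E-box DNA as dimers with MAX and raise transcription of genes for growth, ribosome assembly and metabolism. The MXD proteins, MXI1 and MNT pair with MAX as well, bind the same sites and repress them through SIN3 and histone deacetylases, while MLX is a second hub that pairs with MNT, some MXD proteins and the nutrient-sensing factors MondoA and ChREBP. In mouse skin MYC is known for driving epidermal stem cells out of the follicle niche towards the interfollicular epidermis and sebaceous gland.

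The libraries held between 30696803 and 32463362 counts on named genes. LGR5 was at 132 and 188 CPM (counts scaled to one library size) in LGR5-high for pigs 88R and 95R, and at 1.26 and 3.61 CPM in LGR5-negative. All 4 markers of outer root sheath and bulge passed the test as higher in LGR5-high, and 5 of 7 markers of differentiated epidermis as lower. Of the 15980 genes tested with edgeR's quasi-likelihood test, LGR5-high was higher for 22.7% and lower for 22.0% (adjusted p-value under 0.05). These shares are the background for the counts of that fit. Counts from another scaling or tool, or with a replicate block, have other backgrounds, given as gene numbers at the end. Counts from edgeR at an unadjusted p-value under 0.05 have no such background, and nothing is read from them. The median log2 fold change (LGR5-high over LGR5-negative) of all tested genes was 0.02 after TMM scaling, and 0.24 if libraries were scaled by library size only.

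All 10 members passed the filter on low counts. By the threshold of that fit, read as a description and not as a test of the members, 2 lay on the higher side in LGR5-high (MYCN and MXD3), 6 on the lower side (MYC, MYCL, MAX, MNT, MXD1 and MXD4) and 2 were not called (MXI1 and MLX). The direction was the same in both pigs for 9 of the 10 members, MXI1 being the exception. The median log2 fold change of the members was -0.42, and -0.20 with library size only. Their median size, regardless of sign, was 1.08 on the log2 scale, against 0.47 for all tested genes. Since the members were chosen on this contrast, nothing is read from these shares, and a call lost or kept under another setting, given for single members below, describes only how near a member lay to the threshold.

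**Figure D1:**
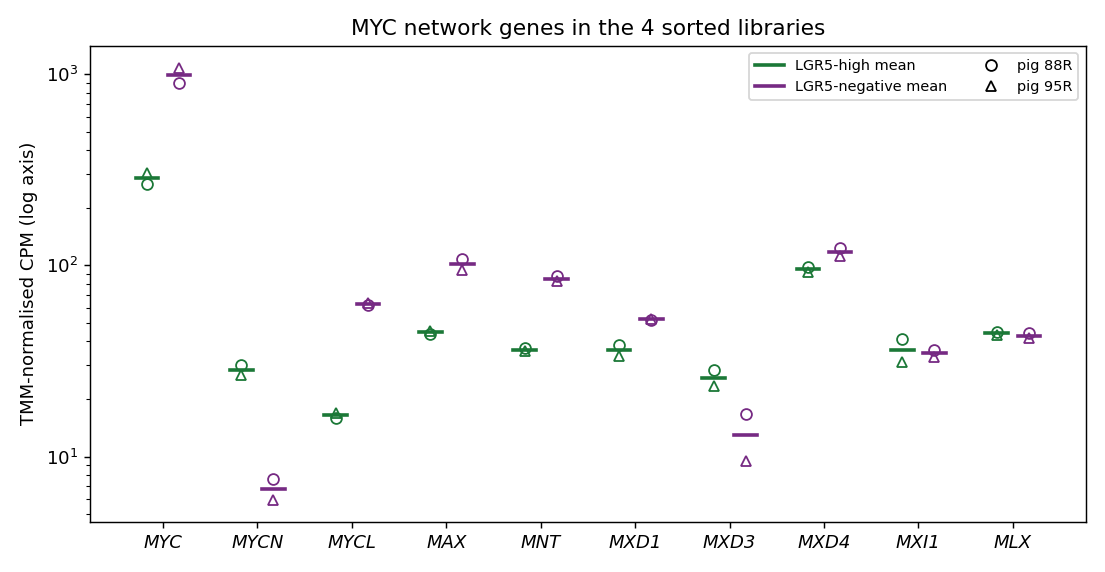
Level of each member in the 4 libraries, in TMM-scaled CPM on a log axis, with circles for pig 88R, triangles for pig 95R, colours for the populations and bars for their means. MYC, MYCL, MAX and MNT lie lower in both LGR5-high libraries, MYCN and MXD3 lie higher, and MXI1 and MLX overlap.

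The 3 MYC paralogs went in different directions. MYC was at 267 and 304 CPM in LGR5-high for pigs 88R and 95R, against 902 and 1082 CPM in LGR5-negative. Both LGR5-negative libraries lay well above both LGR5-high libraries. The mean of LGR5-high was 286 ± 26.0 CPM and that of LGR5-negative 992 ± 128 CPM (SD, n = 2 pigs), so that MYC was 3.47-fold higher in LGR5-negative. Its log2 fold change was -1.80 (standard error 0.125), and the values within pigs 88R and 95R were -1.75 and -1.83. In sorted bulk cells, fewer cells of an expressing type and less RNA per cell cannot be told apart, and this holds for all levels given here.

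MYCL, the paralog first found amplified in small cell lung cancer and also known from dendritic cells, went the same way as MYC. It was at 15.9 and 17.0 CPM in LGR5-high against 61.7 and 63.3 CPM in LGR5-negative, in the order of pigs 88R and 95R that is kept below. The pigs differed little and the populations were far apart, with a mean 3.80-fold higher in LGR5-negative and a log2 fold change of -1.93, whose standard error was 0.0973. Markers of Langerhans cells and other leukocytes were also lower in LGR5-high for 3 of the 4 markers tested. Their summed level was 8.61 and 6.96 CPM in LGR5-high against 87.2 and 127 CPM in LGR5-negative. The T cell genes CD3E and CD3D were at 0 in both LGR5-high libraries and had 1 and 2 counts (CD3E) and 0 and 2 counts (CD3D) in LGR5-negative, too few to be tested or to show a difference. Most of that sum was CD74, an antigen presentation gene, while the Langerhans cell gene CD207 reached 5.69 CPM at most. The part of leukocytes in the MYCL difference was not tested.

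MYCN, the paralog of embryonic and neural progenitors, ran the other way. It was at 30.0 and 26.6 CPM in LGR5-high against 7.62 and 5.92 CPM in LGR5-negative. The exact 95% Poisson intervals, which cover counting error only, were 24.9 to 28.5 CPM for the lower LGR5-high library and 6.64 to 8.70 CPM for the higher LGR5-negative library. MYCN was 4.18-fold higher in LGR5-high, and its log2 fold change was 2.06 (standard error 0.169), 1.97 within pig 88R and 2.16 within pig 95R. A pseudogene whose RefSeq span overlaps MYCN had 0 counts in all 4 libraries.

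Within a library, counts of 2 genes share the same scaling, so the change of their ratio between populations does not depend on normalization. Transcript lengths were not used here, so the ratio itself does not rank the genes. MYC made up 85.3% and 87.5% of the counts on the 3 paralogs in LGR5-high, and 92.9% and 94.0% in LGR5-negative. MYCN made up 9.57% and 7.66% in LGR5-high and 0.784% and 0.514% in LGR5-negative. The ratio of MYCN to MYC counts therefore rose by 3.73 and 4.00 on the log2 scale from LGR5-negative to LGR5-high in pigs 88R and 95R. MYCL kept nearly the same proportion to MYC, with ratios between 0.0558 and 0.0684 in all 4 libraries.

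MAX, the obligate partner of the MYC proteins and a partner of the MXD proteins, was at 43.7 and 45.6 CPM in LGR5-high against 107 and 95.0 CPM in LGR5-negative. Its log2 fold change of -1.18 (standard error 0.0952) was smaller in size than that of MYC, at -1.30 within pig 88R and -1.06 within pig 95R. The ratio of MYC to MAX counts was 6.11 and 6.67 in LGR5-high and 8.40 and 11.4 in LGR5-negative. Thus the ratio was lower in LGR5-high in both pigs, with log2 changes of -0.46 in pig 88R and -0.77 in pig 95R.

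Among the repressive partners, MNT was the one closest to MAX in log2 fold change. MNT is the broadly expressed antagonist of MYC and was at 36.7 and 35.8 CPM in LGR5-high against 87.6 and 82.5 CPM in LGR5-negative, with no overlap and a log2 fold change of -1.23 (standard error 0.0858). Relative to MAX counts, MNT stayed between 0.786 and 0.869 in all 4 libraries, and the log2 change of that ratio was 0.04 for pig 88R and -0.14 for pig 95R. The ratio of MYC to MNT counts was 7.28 and 8.49 in LGR5-high and 10.3 and 13.1 in LGR5-negative.

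MXD1, a repressor induced during terminal differentiation of keratinocytes and other cells, was at 38.5 and 33.5 CPM in LGR5-high against 52.0 and 52.5 CPM in LGR5-negative. Its log2 fold change was -0.54 (standard error 0.105), and it was no longer called with library size only (-0.31) or without the LGR5-high library of pig 95R (-0.44). The RefSeq span of MXD1 overlaps that of ASPRV1, a protease gene of the upper epidermis, which had a log2 fold change of 1.52. The strand setting of the counting is not given in the sources used here, so reads of the pair may not be separated. MXD4, another repressor linked to differentiation, was at 98.3 and 92.4 CPM in LGR5-high against 124 and 112 CPM in LGR5-negative. Its log2 fold change of -0.30 (standard error 0.0888) was the smallest of the called members, and 7 of 14 alternative settings ended the call, with values between -0.39 and -0.08 over the 14.

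MXD3 differs from the other MXD genes in that it is known to be expressed in cycling progenitors, during S phase. Its levels were 28.3 and 23.3 CPM in LGR5-high against 16.6 and 9.43 CPM in LGR5-negative. The populations did not overlap, but the spread between pigs was wide, with means of 25.8 ± 3.56 and 13.0 ± 5.09 CPM (SD, n = 2). With the pig fitted as a replicate block the log2 fold change was 1.02 (standard error 0.143). In the main fit, without the block, the log2 fold change was 0.98 (standard error 0.276), or 0.76 for pig 88R alone and 1.30 for pig 95R alone. Without the LGR5-high library of pig 88R it was 0.83, and without that of pig 95R it was 1.12, and the call was lost in both cases. Without the LGR5-negative library of pig 88R it was 1.44, and without that of pig 95R it was 0.62, with the call kept.

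MXI1 and MLX did not separate the populations. MXI1, the repressor also named MXD2, was at 41.0 and 31.2 CPM in LGR5-high against 36.0 and 33.3 CPM in LGR5-negative, so that the LGR5-high libraries enclosed the others. The 95% interval of its log2 fold change of 0.06 ran from -0.32 to 0.44. MLX was at 44.7 and 43.4 CPM in LGR5-high against 44.2 and 41.7 CPM in LGR5-negative, and its log2 fold change of 0.04 had a 95% interval from -0.19 to 0.26. The span of MLX overlaps that of PSMC3IP, a recombination factor gene, which held between 47 and 127 counts against 1259 to 1535 on MLX. The ratio of MLX to MAX counts was 1.02 and 0.952 in LGR5-high and 0.411 and 0.439 in LGR5-negative, since MAX moved and MLX did not separate.

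**Figure D2:**
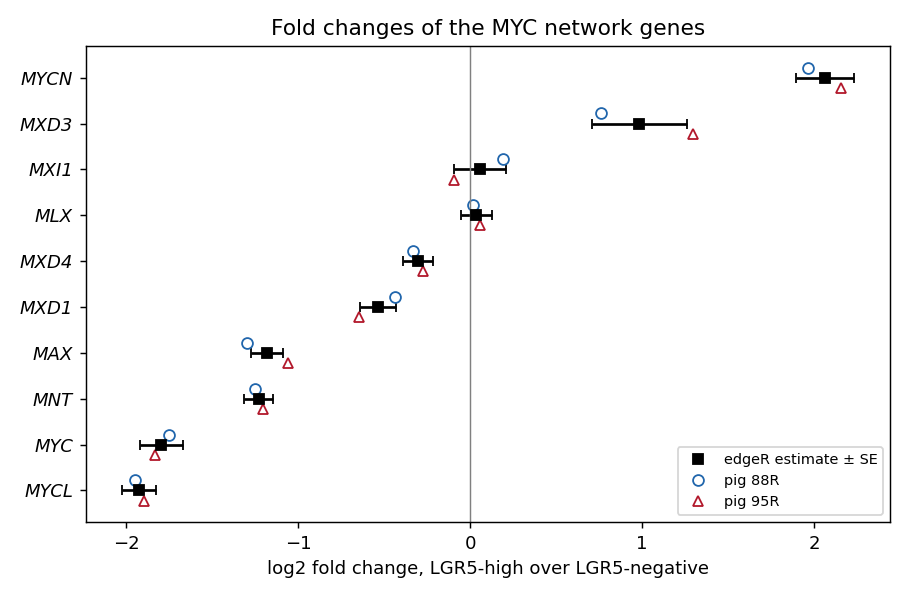
Log2 fold change (LGR5-high over LGR5-negative) of each member (square, with its standard error), and the separate values of pigs 88R (circle) and 95R (triangle). The values run from -1.93 for MYCL to 2.06 for MYCN, and the pigs lie on opposite sides of 0 only for MXI1.

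Added up, the 3 MYC paralogs had 313 and 348 CPM in LGR5-high against 971 and 1151 CPM in LGR5-negative, a sum that is mostly MYC. The 5 MAX-binding repressors (MXD1, MXD3, MXD4, MXI1 and MNT) had 243 and 216 CPM in LGR5-high against 316 and 289 CPM in LGR5-negative. The count ratio of the paralogs to the repressors was 1.29 and 1.61 in LGR5-high and 3.07 and 3.98 in LGR5-negative. In both populations pig 95R had the higher ratio.

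**Figure D3:**
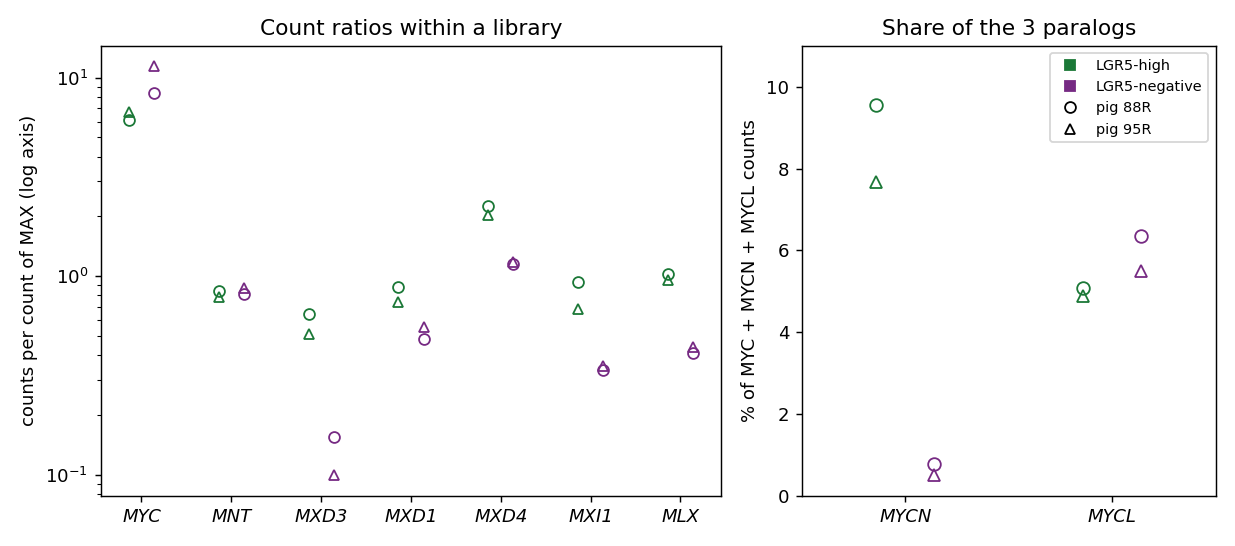
Left, counts of each member per count of MAX within each library, on a log axis, and right, percent of the counts on the 3 paralogs that belong to MYCN and MYCL, with colours for populations and circles and triangles for pigs 88R and 95R. MYC per MAX is lower in LGR5-high (6.11 and 6.67 against 8.40 and 11.4), MNT per MAX stays between 0.786 and 0.869, and the MYCN share is 9.57% and 7.66% in LGR5-high but under 1% in LGR5-negative.

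The difference between the pigs was not used in choosing the members and could be tested. The pig term of edgeR's quasi-likelihood test, fitted beside the population, called 1.78% of the 15980 genes higher and 2.52% lower in pig 95R. Each pig is 1 animal, so the test compares these 2 animals over their sorted libraries. Of the 10 members, 0 were higher and 1 was lower in pig 95R. At an unadjusted p-value under 0.05 the counts were 1 and 2, without a background over all genes. DESeq2 called 0 and 0, against 86 and 151 over all genes, and limma-voom called 0 and 1, against 375 and 488. The median size of the pig difference was 0.10 on the log2 scale for the members and 0.13 for all tested genes.

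MXD3 was the called member, with a log2 difference (pig 95R over pig 88R) of -0.53 (95% interval -0.83 to -0.23, adjusted p = 0.0422 in the edgeR fit). It was lower in pig 95R in both populations, with log2 differences of -0.28 in LGR5-high and -0.81 in LGR5-negative. The call was lost with the scaling of DESeq2 (adjusted p = 0.101 from edgeR), with library size only (0.150), with upper quartile scaling (0.117), with a minimum of 10 counts per library (0.0551) and in DESeq2 itself (0.400), and was kept in limma-voom and without the low-count filter. MYC had a log2 difference of 0.22 between the pigs (95% interval 0.04 to 0.41, adjusted p = 0.216 from edgeR) and MXI1 one of -0.26 (95% interval -0.50 to -0.02, adjusted p = 0.301 from edgeR), and neither passed the adjustment. For MYCN the interval was -0.54 to 0.04. MYCL, MAX, MNT, MLX, MXD1 and MXD4 had intervals that included 0 and lay within -0.32 and 0.29.

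**Figure D4:**
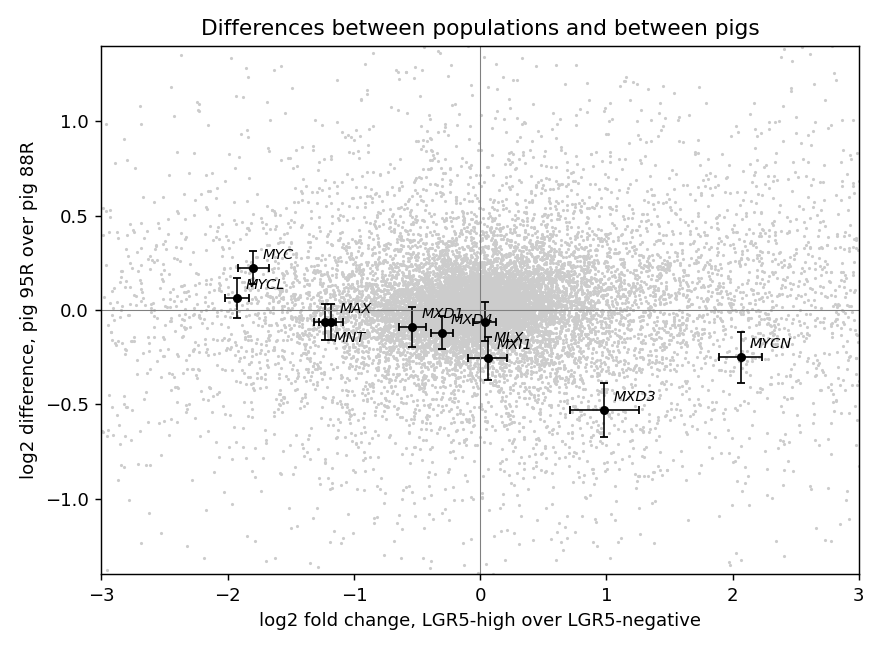
Log2 fold change between populations (horizontal) against log2 difference between pigs (vertical) for 14883 tested genes in grey and the 10 members in black with standard errors, and with 1097 genes outside the axes. The members spread along the population axis from -1.93 to 2.06 and stay within -0.53 and 0.22 on the pig axis.

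Markers of proliferating cells moved along with MXD3 and MYCN. The 6 markers, among them MKI67 and TOP2A, summed to 536 and 354 CPM in LGR5-high against 274 and 140 CPM in LGR5-negative, the same order of the 4 libraries as for MXD3 and MYCN. Between populations 3 of 6 were higher in LGR5-high. With the pig fitted as a replicate block, which called 55.7% of all tested genes against 44.7% without it, 6 of 6 were higher. All 6 were lower in pig 95R in edgeR, and DESeq2 called 4 of the 6. MKI67 itself, at 190 and 135 CPM in LGR5-high against 105 and 51.5 CPM in LGR5-negative, gave a log2 fold change of 1.06 (standard error 0.341) that just missed the threshold, with an adjusted p = 0.0504 from edgeR, and was called with the block. The part of cycling cells in the MXD3 and MYCN differences was not tested.

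Summed markers of differentiated epidermis were lower in LGR5-high, as were MYC, MYCL, MAX, MNT, MXD1 and MXD4. Of the 7 markers LGR5-high had 0 higher and 5 lower, in edgeR and in DESeq2 alike and also at an unadjusted p-value under 0.05, and they summed to 6550 and 5967 CPM in LGR5-high against 65700 and 56550 CPM in LGR5-negative. In both populations that sum was lower in pig 95R, where MYC and MYCL were higher, so their order of the 4 libraries differed. The order of MAX and MXD1 differed as well, while MNT and MXD4 had the order of the sum. The keratin genes KRT1 and KRT10 made up most of the sum, at 31270 and 31040 CPM in the LGR5-negative library of pig 88R. KRT10, a keratin of the suprabasal layers, had a log2 fold change of -3.44, while LOR (0.20) and IVL (-0.16) were not called. Melanocyte markers were lower in LGR5-high for 5 of 7 genes and summed to 62.5 and 62.6 CPM in LGR5-high against 85.0 and 261 CPM in LGR5-negative, highest in the library where MYC was highest. Whether these cells account for a part of the member differences was not tested.

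By the Euclidean distance of centred log2 CPM over the 4 libraries, the tested genes most like MYC were DCAF4 (distance 0.0405), a substrate receptor of a ubiquitin ligase, ABCC3 (0.0549), a membrane transporter, and EMP1 (0.0765), an epithelial membrane protein. EMP1 was at 661 and 716 CPM in LGR5-high against 2281 and 2615 CPM in LGR5-negative, and its log2 fold change of -1.83 was close to the -1.80 of MYC. With 4 libraries this likeness is a description of these libraries.

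The pathway around the members was read from 7 lists of 130 genes, of which 128 were tested and 2 symbols did not match. Together 26 were higher, 49 were lower and 53 were not called in LGR5-high, with a median log2 fold change of -0.18. With library size only, 37 were higher and 22 lower and the median was 0.04, so its sign rests on the scaling. The median of all tested genes moved as well, from 0.02 to 0.24, and the list median lay below it under both scalings. The tests of single genes below are from edgeR's quasi-likelihood test across all genes.

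**Figure D5:**
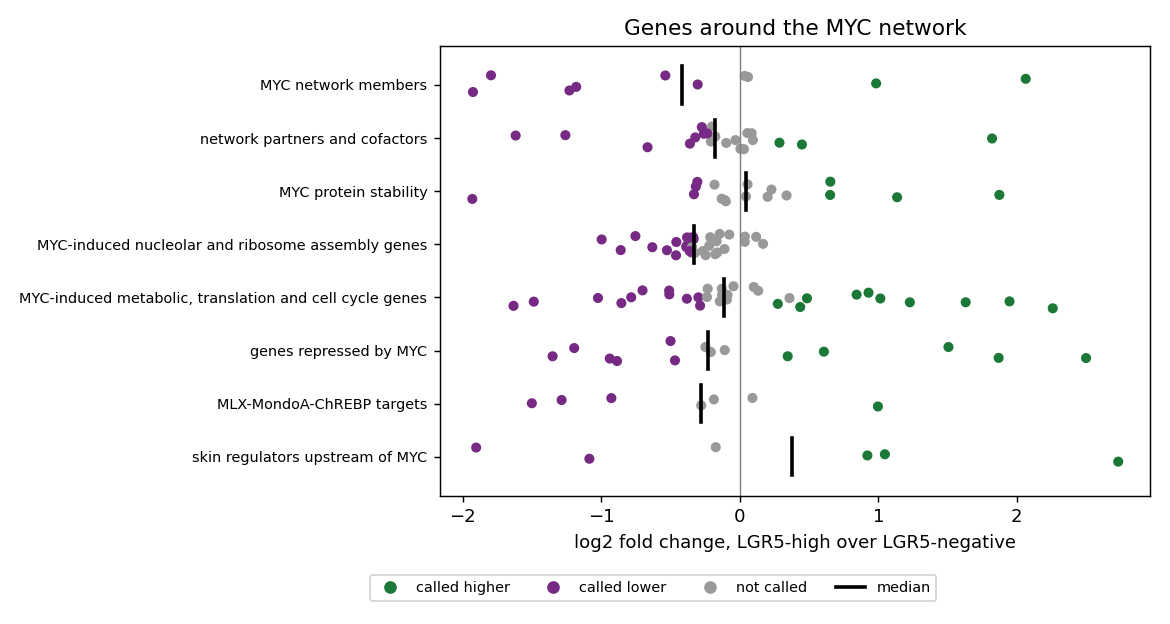
Log2 fold change (LGR5-high over LGR5-negative) of every tested gene of the 7 lists and of the members, 1 row per list, with a bar for the list median and colours for genes called higher, called lower or not called. Nucleolar and ribosome assembly genes have 15 called genes on the lower side and 0 on the higher side, while metabolic genes have 10 higher and 11 lower.

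Nucleolar and ribosome assembly genes are classic targets raised by MYC. Of 31 tested, LGR5-high had 0 higher and 15 lower, with a median log2 fold change of -0.33. At an unadjusted p-value under 0.05 the counts were 0 and 20, and DESeq2 and limma-voom each called 0 and 15. The median kept its sign with library size only (-0.11), where 2 were higher and 4 were lower, and with upper quartile scaling the counts were 1 and 8. NOP2, an rRNA methyltransferase, was at 57.2 and 55.2 CPM in LGR5-high against 114 and 111 CPM in LGR5-negative, and WDR43, a processome subunit, had a log2 fold change of -0.86. NPM1, the abundant nucleolar chaperone, was not called, with a log2 fold change of 0.04. Fold changes of the list were thus smaller than that of MYC.

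The metabolic, translation and cell cycle targets split. Of 32 genes 10 were higher and 11 were lower, with a median of -0.11. With library size only, 13 were higher and 6 lower, and the median was 0.11 against 0.24 for all tested genes. HK2, the first enzyme of glycolysis, was at 163 and 137 CPM in LGR5-high against 28.5 and 34.1 CPM in LGR5-negative (log2 fold change 2.26), and the amino acid transporter gene SLC7A5 had a log2 fold change of 1.95. IMPDH1, an enzyme of guanine nucleotide synthesis, had -1.49, and TFRC, the transferrin receptor, -1.02. So within one class of MYC targets single genes lay far apart on both sides of 0. ODC1, the rate-limiting enzyme of polyamine synthesis and an E-box target, was lower in LGR5-high (-1.63) and also lower in pig 95R (-0.54), and the serine enzyme gene SHMT1 was lower in pig 95R (-0.40). The pig call of SHMT1 was lost in DESeq2, under 3 other scalings and with a minimum of 10 counts per library, and that of ODC1 with library size only.

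Among 14 genes known to be repressed by MYC, 5 were higher in LGR5-high (CLU, THBS1, CDKN1C, GAS1 and ITGB1) and 6 were lower, with a median log2 fold change of -0.23 that was -0.0043 with library size only. CLU, a secreted chaperone, was at 246 and 351 CPM in LGR5-high against 51.4 and 54.1 CPM in LGR5-negative (5.66-fold higher in LGR5-high). The cell cycle inhibitor gene CDKN1A went the other way, at 224 and 234 CPM against 548 and 501 CPM (-1.20), and so did the differentiation factor gene CEBPD (-0.89). THBS1, a matrix protein, was higher in LGR5-high (1.87) and in pig 95R (0.49). The cell cycle inhibitor gene CDKN1C had a log2 fold change of 1.51. The growth arrest gene GAS1 (0.61) and the integrin gene ITGB1 (0.35) each lost the call without any 1 of 3 libraries, with values of 0.37 to 0.68 for GAS1 and 0.23 to 0.36 for ITGB1. For GAS1 these were both LGR5-high libraries and the LGR5-negative library of pig 95R, and for ITGB1 both LGR5-negative libraries and the LGR5-high library of pig 88R.

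Network partners and cofactors had 3 higher and 8 lower of 21, with a median log2 fold change of -0.18 that was 0.05 with library size only, where 6 were higher and 3 lower, and DESeq2 called 1 and 6. MLXIP, which encodes MondoA, was at 48.0 and 49.5 CPM in LGR5-high against 145 and 154 CPM in LGR5-negative (log2 fold change -1.62, standard error 0.0805), in contrast to its partner MLX. MLXIPL, which encodes ChREBP, had 15 and 14 counts in LGR5-high and 2 and 5 in LGR5-negative, was called higher, and lost the call in DESeq2, without the low-count filter and without any 1 of the 4 libraries (log2 fold change 1.35 to 2.54, against 1.82 with all). MYCBP2, a ubiquitin ligase named for binding MYC, had a log2 fold change of -1.26. Of the corepressor subunits SIN3A was lower (-0.67) and HDAC1 was lower (-0.32), while HDAC2 was higher (0.45). The HDAC1 call was lost under library size only (-0.10) and upper quartile scaling (-0.23), and without either LGR5-high library (-0.29 and -0.36) or the LGR5-negative library of pig 88R (-0.27). RUVBL1, an ATPase of the TIP60 complex, was higher by 0.29, a call lost in DESeq2, without the low-count filter and without any 1 of the 4 libraries (0.25 to 0.31).

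Genes acting on the stability of the MYC protein had 4 higher and 4 lower of 17, with a median log2 fold change of 0.04, and 7 higher and 1 lower with library size only. FBXW7, the ubiquitin ligase subunit that recognises phosphorylated MYC, was at 103 and 108 CPM in LGR5-high against 65.6 and 68.5 CPM in LGR5-negative (log2 fold change 0.65), and FBXO32, another such subunit, had 1.87. SKP2 (0.65), also a ubiquitin ligase subunit, and the mitotic kinase gene PLK1 (1.14) were the other higher genes. Without the LGR5-high library of pig 88R neither was called (0.50 and 0.92), nor was SKP2 without the LGR5-negative library of pig 95R (0.57). On the lower side PPP2R5A, a phosphatase subunit that acts on MYC, was at 55.8 and 49.1 CPM in LGR5-high against 212 and 188 CPM in LGR5-negative (-1.93). The other lower genes were AXIN1 (-0.31) and the deubiquitinase genes USP36 (-0.33) and USP7 (-0.32). They lost their calls without any 1 of the 4 libraries, where they lay between -0.39 and -0.27. Library size only also ended the calls, at -0.08, -0.11 and -0.09 in that order. So did upper quartile scaling, at -0.21, -0.24 and -0.22. Protein levels were not measured.

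Targets of the MLX branch had 1 higher and 3 lower of 7, with a median log2 fold change of -0.28, and 1 and 2 with library size only. The arrestin gene ARRDC4 was at 82.5 and 103 CPM in LGR5-high against 226 and 298 CPM in LGR5-negative (log2 fold change -1.50), and the factor gene KLF10 had -1.29. The glycolytic gene PKLR was lower (-0.93), at 2.06 and 1.64 CPM against 3.40 and 3.64 CPM, and was not called in DESeq2, with library size only or without any 1 of the 4 libraries (-1.11 to -0.76). GPD1, a glycerol phosphate enzyme, was higher, at 5.79 and 7.05 CPM against 3.02 and 3.41 CPM, and was not called without the LGR5-high library of pig 95R (0.85 on the log2 scale). TXNIP, the best known MondoA target, was not called between populations (0.09), but it was higher in pig 95R by 0.55, as was ARRDC4 by 0.36. The adjusted p-values of these pig differences were 0.00782 and 0.0297 from edgeR, and the ARRDC4 call was lost in DESeq2 and under 3 other scalings, the TXNIP call under the scaling of DESeq2 and library size only.

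Of 6 regulators known to act upstream of MYC in skin, LGR5-high had 3 higher and 2 lower, and the median log2 fold change was 0.37. OVOL1, a repressor of MYC in keratinocytes, was at 91.1 and 74.2 CPM in LGR5-high against 359 and 259 CPM in LGR5-negative (log2 fold change -1.90), the same direction as MYC. PRDM1, also a repressor of MYC, had -1.09. The β-catenin gene CTNNB1 was at 1116 and 1137 CPM in LGR5-high against 538 and 552 CPM in LGR5-negative (1.05), and TCF7L2, its DNA-binding partner, had a log2 fold change of 2.73. LRIG1, a stem cell gene, was higher by 0.92, and TP63, the master factor of the epithelium, was not called (-0.17). OVOL1 was also lower in pig 95R (-0.38), a call lost in DESeq2 and under 3 other scalings.

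Over all 7 lists the pig term called 3 genes higher and 3 lower in pig 95R of 128. These were THBS1, TXNIP and ARRDC4 on the higher side and ODC1, SHMT1 and OVOL1 on the lower side.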

How the data were processed

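RNA of the 4 sorted epidermal libraries was sequenced as paired-end poly(A) libraries. The deposited table holds raw read counts of each gene symbol, which the authors had not normalized. The submitters' processing notes name Trimmomatic 0.36, STAR 2.5.2b and featureCounts of Subread 1.5.2. The genome build, annotation and strand setting are not given in the sources used here. The 1 entry without a name held 0.360% to 0.626% of the counts and was left out. Counts were analysed in R 4.3.3 with edgeR 4.0.16 (filterByExpr, TMM, glmQLFit and glmQLFTest, Benjamini-Hochberg adjustment over 15980 genes, adjusted p-value under 0.05), limma 3.58.1 and DESeq2 1.42.0. The fits were also run on simulated counts with equal spread for all genes and few changed genes, a simpler setting than these data. The study's methods name Student's t-test, which was an alternative. Libraries of the same population differed by more than counting noise (chi-square per degree of freedom 21.8 and 25.0). Libraries of 1 pig come from the same animal and so are paired. After the population means were subtracted, they correlated at 0.370 across genes.

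The members and lists were chosen with earlier results of these data known. Named genes were the members, per list up to 2 higher and 2 lower genes with the smallest p, LGR5, MKI67, KRT10, markers that moved with a member and the 3 genes nearest to MYC. Further list genes, named to complete small counts or for their role, were chosen after their values were seen. Of marker lists not described in the text, dermal fibroblasts had 1 higher and 4 lower of 5, endothelial cells 0 and 3 of 4 (0 and 4 at an unadjusted p-value under 0.05, 0 and 3 in DESeq2), smooth muscle 2 and 0 of 2, sebaceous cells 2 and 0 of 2 and nerve cells 1 and 0 of 2.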

Additional observations from a re-analysis of the deposited data

Results flagged for a closer look

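MXI1 moved in opposite directions in the pigs. Its log2 fold change (LGR5-high over LGR5-negative) was 0.19 for pig 88R but -0.0958 for pig 95R. The difference between these fold changes was not tested, since 1 library per population and pig leaves no replicate for it.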

How the results depend on the processing

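Between populations the main fit gave 3632 higher and 3508 lower genes, DESeq2 3329 and 3387, and limma-voom 3664 and 3530. Scaling by library size only gave 5473 higher and 2326 lower genes, and upper quartile scaling 4292 and 2929. Library size only left 22 lower genes of the pathway lists and upper quartile scaling left 29, against 49. These scalings move the median of all genes by construction. Student's t-test of log2 CPM values, at 2 libraries a group, called 544 genes higher and 502 lower (3262 and 3129 at an unadjusted p-value under 0.05), 0 members higher and 2 lower (MYCL and MNT), and 2 list genes higher and 5 lower. Leaving out 1 library in turn gave 2279 to 3169 higher and 2139 to 3004 lower genes, 1 to 2 members higher, and 17 to 22 list genes higher and 24 to 35 lower. In the same fits the log2 fold change of MXI1 ran from -0.1614 to 0.2492 and that of MLX from -0.0146 to 0.0723, both crossing 0, as did NPM1 (-0.0134 to 0.0714) and TXNIP (-0.3741 to 0.4386), and TP63 was at 0.0509 with library size only. A group left with 1 library is assumed to vary like the other. A replicate block for the pig gave 4562 higher and 4342 lower genes and changed no call of a member (2 higher and 6 lower).

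Between the pigs, the higher genes numbered 142 with the scaling of DESeq2, 107 with library size only, 178 with upper quartile scaling, 460 without the low-count filter and 86 in DESeq2, against 284. The lower genes numbered 261, 155 and 250 under these scalings and 151 in DESeq2, against 402, while limma-voom gave 375 higher and 488 lower. The cause was not tested. Leaving out a library was not possible for the pig term, since no residual degrees of freedom would remain. MYC, MYCN and MAX lost their population call in 1 of 14 alternatives, the t-test, and MYCL and MNT in 0 of 14. Depth limits MYCN, MXD3 and MYCL most, with as few as 179, 285 and 547 counts in a library.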
